A study of Mus musculus with 12 samples.

Results

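Genes of cholesterol synthesis were followed in the epididymal white adipose tissue (eWAT) of mice under 4 diets. The members were Hmgcs1, Idi1, Fdps, Fdft1, Sqle and Lss, which code for enzymes, and Insig1 and Srebf2, which code for regulators of the pathway. They were chosen by gene symbol among the Ensembl transcripts of the deposited table, and the transcripts of each gene were summed. All 8 were found among 22870 summed genes, and all 8 were among the 12769 genes tested. Their grouping was named for cholesterol synthesis and LDL uptake, but no member is an uptake receptor or adaptor, so uptake genes are described below from a separate list.

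The mice were male C57BL/6J, 21 weeks old after 16 weeks of feeding, with 3 mice in each group. ND was a normal diet and HFD a high-fat diet. CLE was the HFD with 1.5% (w/w) of an ethanol extract of chrysanthemum leaf, and LU was the HFD with 0.003% (w/w) luteolin, a flavone that the extract also contains. All groups shared strain, sex, age and feeding time, and the CLE and LU mice also ate the high-fat diet. The study sequenced RNA from mice it had picked as representative of each group, so the spread given here is that between picked mice. The values are FPKM, a read abundance scaled to transcript length and library size, as the authors deposited them. Without counts of reads, the depth of each value is unknown.

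Cholesterol is built from acetyl-CoA. HMGCS1 makes HMG-CoA, the precursor of mevalonate, IDI1 and FDPS turn the later isoprene units into farnesyl pyrophosphate, and FDFT1 (squalene synthase), SQLE (squalene epoxidase) and LSS (lanosterol synthase) carry it to the first sterol. SREBP2, the product of Srebf2, is the transcription factor known to switch these genes on when the cell membrane is short of sterol. INSIG1 holds its precursor in the endoplasmic reticulum when sterol is plentiful, and Insig1 is itself a classical SREBP target. Adipocytes store much of the body's free cholesterol, most of it taken up rather than made, and macrophages in fat handle cholesterol from dying adipocytes.

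Promoter sequences are given for members whose values ran together or apart. RefSeq promoters of build GRCm38.p6 were matched for 5 of the 8 members (Hmgcs1, Idi1, Lss, Insig1 and Srebf2), and the 250 bases before each RefSeq start were searched on both strands. The CCAAT box, read by NF-Y, was found in all 5 and in 33.8% of 32851 promoters of the same length. The GC box GGGCGG, read by Sp1, was also in all 5, against 32.7% of all promoters. In Idi1, every match of these boxes lay before the RefSeq start but past 8885501, where its main transcript ENSMUST00000169314 starts. Those Idi1 matches therefore fall within transcribed sequence. The 9-letter sterol element TCACNCCAC was found in 1 of the 5, Hmgcs1 (positions -137 to -129 from the start), against 1.05% of all promoters. Its first 8 letters, TCACNCCA, a search that takes in every match of the longer form, were found in Hmgcs1 and in Srebf2 (positions -162 to -155), against 3.67% of all. The E-box CACGTG was found in Insig1 alone of the 5, against 6.02% of all. A match describes letters and is no proof of a binding site. The stretches upstream of the earliest transcript start are printed for Hmgcs1, the member whose values ran against the others, at chr13:119690101-119690298, and for Insig1, the member with the widest range, at chr5:28071162-28071326. Both are on the plus strand, and capitals mark the sterol element, the CCAAT boxes (ATTGG on the other strand), the GC boxes and the E-box.
Hmgcs1: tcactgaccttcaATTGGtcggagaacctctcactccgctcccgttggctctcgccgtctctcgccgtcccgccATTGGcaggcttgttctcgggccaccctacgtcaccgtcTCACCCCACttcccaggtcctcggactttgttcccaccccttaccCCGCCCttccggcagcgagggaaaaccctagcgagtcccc
Insig1: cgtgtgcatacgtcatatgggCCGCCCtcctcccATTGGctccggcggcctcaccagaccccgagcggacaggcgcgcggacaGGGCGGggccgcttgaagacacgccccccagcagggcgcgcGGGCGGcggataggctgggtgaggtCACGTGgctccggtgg

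The 12 libraries were alike in scale. Set against the geometric mean over libraries, each one had a median ratio of 0.967 to 1.03, its summed genes came to between 434360 and 454257 FPKM, and mice of a group correlated across genes at a Pearson's r of 0.978 to 0.991. The 7 adipocyte markers, which define the labelled tissue, summed to 14877 to 33127 FPKM, whereas 5 epididymis markers summed to at most 5.36 and 5 testis markers to at most 2.71 FPKM, with Spint4 and Lcn5 at 0 in every library. A letter R stands in the titles of 4 libraries, from LU mouse 2, CLE mouse 4 and ND mice 3 and 4, and in none from the HFD group. The column headers of these 4 libraries also share a number that no other library carries. What the letter and the number stand for is not given in the labels, so results are also given without those 4 libraries. Such a run keeps ND mouse 2 alone, CLE mice 2 and 11 and LU mice 3 and 8. Against ND, its differences are therefore given without a test. One column, headed MD4, was taken as ND mouse 4 by inference.

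Most members were higher in the HFD mice than in the ND mice. Of the 8, 4 rose past the threshold (Insig1, Lss, Srebf2 and Sqle) and 0 fell, against 14.8% of all tested genes called higher and 10.8% called lower. A gene counted as called where its fold change exceeded 1.5 and its adjusted p (Benjamini-Hochberg) was below 0.05 in limma, fitted to all 12 libraries on log2(FPKM + 1), a scale on which low values appear to change less than they do. The median of the 8 log2 fold changes was 0.65, against -0.02 over all tested genes. With CLE added to the HFD, 5 members fell relative to HFD (Insig1, Fdps, Sqle, Srebf2 and Lss) and 0 rose, against 10.1% of all genes called lower and 6.34% called higher, and the median was -0.65 against 0.01 over all genes. With LU added, 3 members fell (Insig1, Lss and Sqle) and 0 rose, against 7.64% called lower and 4.81% called higher, with a median of -0.55 against 0.03. These comparisons share the 3 HFD mice, so a value of HFD that is high by chance would enter all 3 of them. Without the 4 libraries with the letter R, the counts were 2 lower with CLE (Sqle and Srebf2) and 0 lower with LU. That run leaves ND mouse 2 alone in its group, so no count is given there for HFD against ND.

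**Figure D1:**
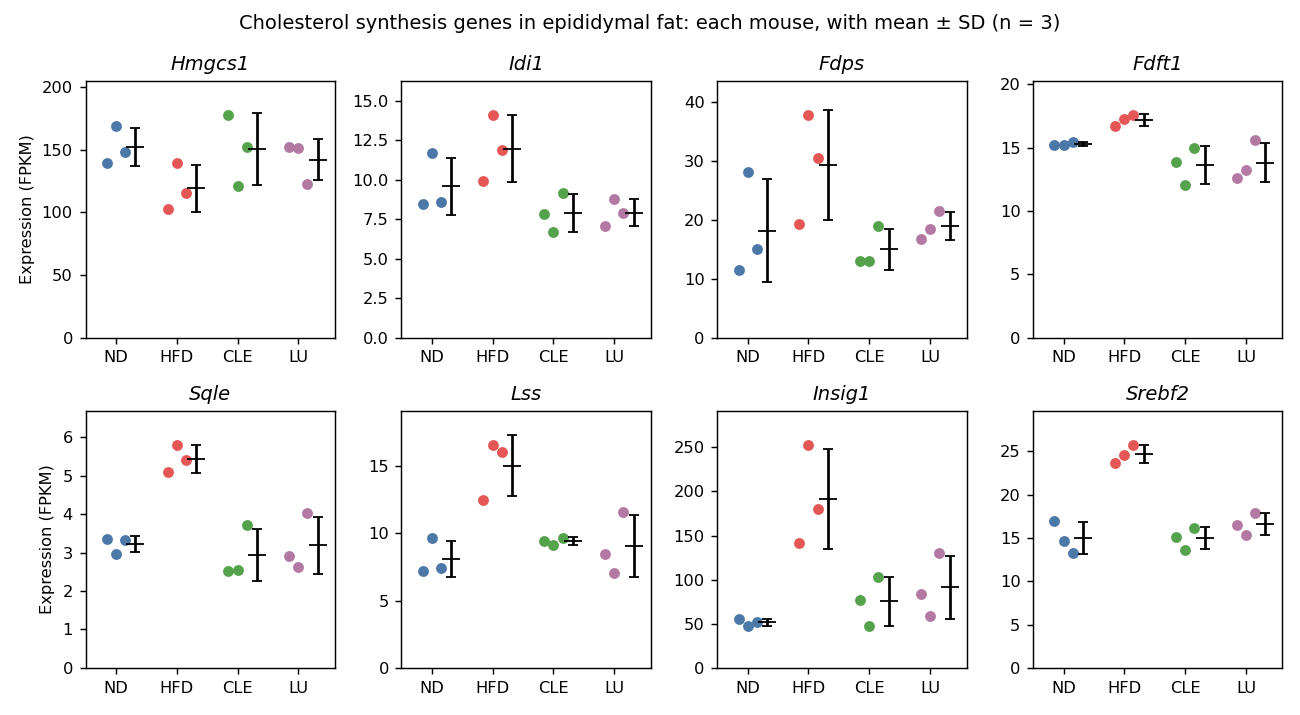
Expression of the 8 members in FPKM (vertical axes, linear from 0) for each mouse (points) in the 4 diet groups, with the mean ± SD of 3 mice in black. For Insig1, Srebf2, Sqle, Lss and, by a small margin, Fdft1 the 3 HFD mice sit above every mouse of the other groups. For Hmgcs1 the HFD mean of 119 FPKM is the lowest of the 4.

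Insig1 (ENSMUSG00000045294, chromosome 5, 28071363 to 28078662 in GENCODE M21, build GRCm38) showed the largest differences of the 8. It stood at 55.4, 47.6 and 52.2 FPKM in ND mice 2, 3 and 4 and at 141, 253 and 180.2 FPKM in HFD mice 12, 15 and 18. In CLE mice 2, 4 and 11 it was at 77.2, 47.2 and 103 FPKM, and in LU mice 2, 3 and 8 at 83.9, 59.1 and 130.5 FPKM. The HFD mice were all above the 9 other mice, but the highest LU mouse came close to the lowest HFD mouse. The HFD mean was 3.70 times the ND mean (log2 fold change 1.83 ± 0.31 SE, adjusted p = 0.00058). Insig1 fell by 1.36 ± 0.31 with CLE (adjusted p = 0.0066) and by 1.10 ± 0.31 with LU (adjusted p = 0.024), on the log2 scale. The LU call was lost without HFD mouse 15 (adjusted p = 0.091), HFD mouse 18 (0.058), LU mouse 2 (0.064) or LU mouse 3 (0.0996) and with no filter (0.055), and without the letter R libraries both calls were lost (0.071 with CLE and 0.074 with LU). Nearly all of the signal was in the full-length transcript ENSMUST00000059155, which held 89.6% to 96.8% of the gene's FPKM in each library.

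Srebf2 (ENSMUSG00000022463, chromosome 15, 82147181 to 82205379), the gene of SREBP2 itself, had the smallest SE among the called members. It was at 17.0, 14.6 and 13.3 FPKM in ND, at 23.7, 24.6 and 25.8 FPKM in HFD, at 15.2, 13.6 and 16.2 FPKM in CLE and at 16.5, 15.4 and 17.9 FPKM in LU. The HFD group did not overlap any other group, and the other 3 groups overlapped one another. The difference of HFD from ND was 0.69 ± 0.10 (adjusted p = 0.00020). With CLE it fell by 0.69 ± 0.10 (adjusted p = 0.00045), and with LU the difference was -0.55 ± 0.10 (adjusted p = 0.0028), under the fold change limit and so not called. Without the letter R libraries, with ND mouse 2 alone in its group, the difference of HFD from ND was 0.51. Without LU mouse 8 the LU difference reached -0.60 and was called.

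Srebf2 was carried by a pair of transcript rows that moved alike. The annotated full-length transcript ENSMUST00000023100 held 68.0% of the gene's FPKM on average. A shorter form assembled from the reads, which begins at 82147228 and stops at 82173704 within the gene, held 27.9%. The short form was at 7.34, 6.90 and 7.58 FPKM in HFD and between 3.46 and 4.83 FPKM in the 9 other mice, and the full-length form was at 15.6 to 17.4 FPKM in HFD and at 8.85 to 12.8 FPKM elsewhere. The share of the short form was 29.5% in HFD and 27.8% in ND on average, and its ranges overlapped (28.0% to 31.0% and 23.1% to 32.8%). The annotation also places Mir33, the gene of a miRNA known to repress cholesterol efflux, inside Srebf2 (82198122 to 82198190), beyond the end of the short form. Its miRNA was not measured by these libraries.

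Hmgcs1 (ENSMUSG00000093930, chromosome 13, 119690379 to 119708260), the enzyme at the head of the pathway, was called in no comparison. It was at 139, 168 and 148 FPKM in ND, at 102, 139.6 and 115 FPKM in HFD, at 178, 121 and 152 FPKM in CLE and at 152, 151 and 123 FPKM in LU. Its HFD mice overlapped each of the other groups, and their mean was the lowest. The log2 difference of HFD from ND was -0.36 ± 0.16 (95% interval -0.70 to -0.01, adjusted p = 0.078), that of CLE from HFD was 0.33 ± 0.16 (adjusted p = 0.13) and that of LU from HFD was 0.26 ± 0.16 (adjusted p = 0.25). None of the 3 was called in any alternative run. Its main transcript, ENSMUST00000179869, held 69.1% to 76.3% of the gene, and an antisense gene, Gm48342, lies across part of it. The library kit does not mark the strand, so reads of the 2 cannot be told apart.

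Idi1 and Fdps, the enzymes between mevalonate and squalene, had higher means in HFD but wide groups. Idi1 (ENSMUSG00000058258, chromosome 13, 8885501 to 8892451) was at 8.46, 11.7 and 8.61 FPKM in ND, at 9.92, 14.1 and 11.8 FPKM in HFD, at 7.83, 6.71 and 9.15 FPKM in CLE and at 7.08, 8.77 and 7.91 FPKM in LU. The HFD mice overlapped the ND mice and lay above all CLE and LU mice. Against ND the difference was 0.29 ± 0.15 (adjusted p = 0.13). Against HFD it was -0.54 ± 0.15 in CLE (adjusted p = 0.019) and -0.53 ± 0.15 in LU (adjusted p = 0.025), both past the p limit but short of the fold limit. They passed both limits without HFD mouse 12 (-0.66 and -0.65), the CLE difference also without CLE mouse 11 (-0.64) and the LU difference also without LU mouse 3 (-0.60). With a pseudocount of 0.1 the CLE difference passed too (-0.59). A minor Idi1 transcript, ENSMUST00000177397, reached 1.38, 1.90 and 1.63 FPKM with HFD but at most 0.79 FPKM in the other mice, many of them near 0, and such small shares are estimates of how shared reads divide among transcripts.

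Fdps (ENSMUSG00000059743, chromosome 3, 89093588 to 89101959) overlapped between the ND and the HFD mice. It was at 11.4, 28.1 and 15.1 FPKM in ND, at 19.3, 37.9 and 30.6 FPKM in HFD, at 13.0, 13.0 and 18.98 FPKM in CLE and at 16.8, 18.5 and 21.5 FPKM in LU. ND mouse 3 and LU mouse 8 reached the range of the HFD mice, and the lowest HFD mouse was just above the highest CLE mouse. The log2 difference of HFD from ND was 0.70 ± 0.30 (adjusted p = 0.071) and was not called. It was called without ND mouse 3 (1.05, adjusted p = 0.0068) or without HFD mouse 12 (0.96, adjusted p = 0.026). Without the letter R libraries the difference was 1.23, against ND mouse 2 alone, the lowest ND mouse at 11.4 FPKM. With CLE it fell by 0.89 ± 0.30 (adjusted p = 0.039), the highest adjusted p of the 5 calls. That call was lost in 11 of 26 alternatives, among them those without HFD mouse 15 (adjusted p = 0.14), HFD mouse 18 (0.10), CLE mouse 2 (0.11), CLE mouse 4 (0.12), LU mouse 2 (0.0502) or LU mouse 3 (0.051). The LU difference was -0.56 ± 0.30 (adjusted p = 0.19). A gene model on the same strand, Gm43738, spans most of Fdps and could share its reads.

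Of the 3 enzymes from farnesyl pyrophosphate to lanosterol, Fdft1 varied least and Sqle and Lss were called in all 3 comparisons. Fdft1 (ENSMUSG00000021273, chromosome 14, 63145150 to 63179578) was at 15.18, 15.19 and 15.5 FPKM in ND, at 16.7, 17.2 and 17.6 FPKM in HFD, at 13.9, 12.0 and 14.95 FPKM in CLE and at 12.6, 13.2 and 15.6 FPKM in LU. Every HFD mouse was above every other mouse, by a small margin. The log2 differences were 0.16 ± 0.10 for HFD against ND (adjusted p = 0.19), -0.32 ± 0.10 for CLE against HFD (adjusted p = 0.024) and -0.30 ± 0.10 for LU against HFD (adjusted p = 0.038), none of them past the fold limit. Its 3′ end overlaps that of Ctsb, the gene of the lysosomal protease cathepsin B on the opposite strand, which averaged 403 FPKM in ND, 1169 in HFD, 535 in CLE and 608 in LU. Reads in the overlap cannot be assigned to either gene without strand, and the part of Ctsb in the Fdft1 values was not tested.

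Sqle (ENSMUSG00000022351, chromosome 15, 59315077 to 59331192), whose product is a rate-limiting enzyme of the sterol branch, was the lowest of the 8. It was at 3.36, 2.98 and 3.33 FPKM in ND, at 5.10, 5.81 and 5.40 FPKM in HFD, at 2.53, 2.55 and 3.73 FPKM in CLE and at 2.92, 2.63 and 4.03 FPKM in LU. The HFD mice stood clear of the other 9. The rise with HFD was 0.61 ± 0.14 (adjusted p = 0.0035), only just past the fold limit, and Sqle fell by 0.72 ± 0.14 with CLE (adjusted p = 0.0021) and by 0.63 ± 0.14 with LU (adjusted p = 0.0065). The rise was no longer called without ND mouse 3 or without HFD mouse 15 (0.57 each, adjusted p = 0.013 and 0.015), nor with the letter R as a covariate (0.52) or with quantile normalization (0.53). Without the letter R libraries, against ND mouse 2 alone, the rise was 0.56. The fall with LU was no longer called without LU mouse 3 (-0.53, adjusted p = 0.031) or without the letter R libraries (-0.59, adjusted p = 0.053).

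Lss (ENSMUSG00000033105, chromosome 10, 76531588 to 76557138) closes the rings of the first sterol. It was at 7.21, 9.63 and 7.44 FPKM in ND, at 12.4, 16.6 and 16.0 FPKM in HFD, at 9.42, 9.13 and 9.67 FPKM in CLE and at 8.44, 7.06 and 11.6 FPKM in LU. Again no HFD mouse overlapped another group, although LU mouse 8 lay within 1 FPKM of HFD mouse 12. Lss rose by 0.82 ± 0.16 with HFD (adjusted p = 0.0015), fell by 0.61 ± 0.16 with CLE (adjusted p = 0.013) and fell by 0.69 ± 0.16 with LU (adjusted p = 0.0092). The CLE call was lost without HFD mouse 15 (-0.54, adjusted p = 0.053), HFD mouse 18 (-0.56, adjusted p = 0.049) or the letter R libraries (adjusted p = 0.069) and with quantile normalization (-0.56), and the LU call without LU mouse 3 (-0.55, adjusted p = 0.041) or the letter R libraries (adjusted p = 0.056). The protein-coding transcript ENSMUST00000048678 went from 3.97 ± 0.62 FPKM in ND to 9.58 ± 1.97 in HFD, 4.40 ± 0.37 in CLE and 4.46 ± 0.20 in LU (SD, n = 3). It held 59.1% to 67.2% of the gene in HFD and 40.0% to 60.1% in the other mice. An antisense gene, 4930483K19Rik, overlaps the 3′ part of Lss.

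Against the ND mice, no member was called in the CLE group. The count was 0 of 8, against 2.07% of all genes called higher and 0.854% called lower. At an unadjusted p under 0.05 in limma it was also 0 of 8, against 23.3% of all genes. The 95% intervals of the log2 differences were narrowest for Fdft1 (-0.37 to 0.05) and Srebf2 (-0.22 to 0.23) and widest for Insig1 (-0.22 to 1.16) and Fdps (-0.85 to 0.47). For Insig1 and Fdps these data therefore still allow a difference of more than 1.5-fold. In the LU group, 0 of 8 were called against ND, with 4.97% of all genes called higher and 1.62% called lower, and Insig1 was the 1 member with an unadjusted p under 0.05, against 27.7% of all genes. Its 3 LU mice were all above the ND mice (0.73 ± 0.31, 95% interval 0.04 to 1.42, adjusted p = 0.15).

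The extract and luteolin were also compared directly. Between CLE and LU, 0 of 8 members were called, and 0.00783% of all genes (1 of 12769) were called in either direction. An unadjusted p under 0.05 in limma was found for 0 of 8 members and 5.26% of all genes. The largest differences were -0.33 for Fdps (95% interval -0.99 to 0.33) and -0.26 for Insig1 (-0.95 to 0.43), and the narrowest interval was that of Fdft1 (-0.23 to 0.19). That Srebf2 and Fdps were called with CLE and not with LU is no sign of a difference between the supplements, since the CLE against LU difference of Srebf2 was -0.14 ± 0.10 (adjusted p = 0.90) and that of Fdps was -0.33 ± 0.30 (adjusted p = 0.91). The dose of the extract and that of luteolin differed, so the 2 values stand side by side.

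**Figure D2:**
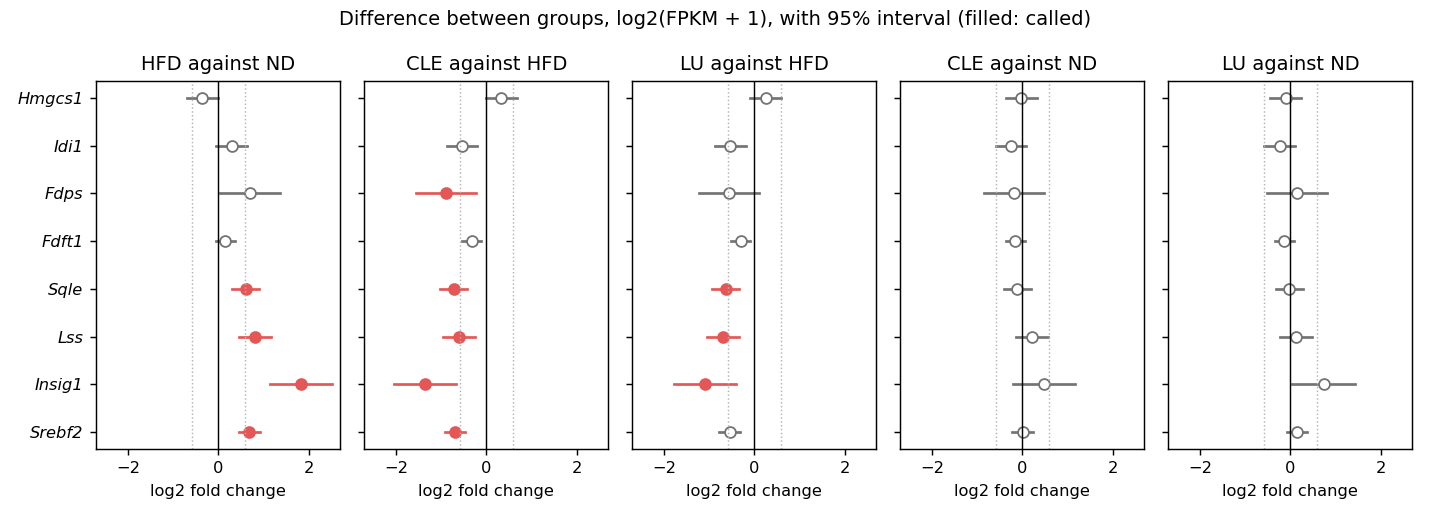
Log2 fold change of each member on the log2(FPKM + 1) scale (horizontal axes) in 5 comparisons, with 95% intervals from limma. Filled red points were called, and dotted lines mark a fold change of 1.5. The 4 called points of HFD against ND lie right of 0, the 5 of CLE against HFD and the 3 of LU against HFD lie left of it, and the last 2 panels hold none.

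The order of the members by FPKM, a unit that allows for transcript length, was led by Hmgcs1 and Insig1. Hmgcs1 was highest in ND (mean 152 FPKM), CLE (150.4) and LU (142), where its mice overlapped those of Insig1. In HFD, Insig1 (192 FPKM) was above Hmgcs1 (119), with no overlap between the mice of the 2 genes. Fdps, Srebf2 and Fdft1 followed, between 13.6 and 29.3 FPKM on average. Fdps overlapped its next neighbour in each group, and Fdft1 and Srebf2 overlapped in ND, CLE and LU but not in HFD, where Srebf2 was higher. Lss and Idi1 came next and overlapped in every group, and Sqle was the lowest in all 4, below the next gene without overlap.

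Mice of 1 group differed in the same direction for several members. HFD mouse 12 was the lowest of its group for all 8 members and HFD mouse 15 the highest for 6. CLE mouse 11 was the highest of its group for 7 members, all but Hmgcs1, and CLE mouse 4 the lowest for 6. LU mouse 8 was the highest for 6. As a description over the 12 libraries, each member's r with the mean of the other 7 (on standardized log2 values) lay between 0.81 and 0.87, except Hmgcs1 at -0.44. After group means were removed, r was 0.89 between Fdps and Idi1, 0.86 between Sqle and Insig1, and 0.81 between Fdft1 and Insig1, and Hmgcs1 and Idi1 were at 0.67. Sqle and Fdft1 were at 0.80, Fdps and Lss at 0.72, and Insig1 and Srebf2 at 0.66. Some pairs were far lower, with 0.16 for Idi1 and Srebf2, 0.06 for Fdps and Srebf2, and the lowest, -0.18, for Hmgcs1 and Sqle. All these points share their libraries and the genes were chosen as a pathway, so no p is given.

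The genes outside the 8 most like the mean standardized member value over the 12 libraries were Apex1 (r = 0.96), a DNA repair nuclease, Gpd1 (0.95), the cytosolic glycerol 3-phosphate dehydrogenase, Ccdc163 (0.95), Kmt5a (0.94), a histone H4 methyltransferase, and Gys2 (0.94), a glycogen synthase. Gpd1 averaged 216 FPKM in ND, 392 in HFD, 220.1 in CLE and 206 in LU. The genes that ran most nearly opposite were Rdx (-0.97), which codes for radixin, Farp1 (-0.96), Creb3l2 (-0.96), Peg3 (-0.95) and Slit3 (-0.95). Peg3, an imprinted gene, averaged 171 FPKM in ND, 75.8 in HFD, 209 in CLE and 176 in LU.

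The other enzymes of the pathway were counted by step, and the difference between early and late steps was not tested. Of the mevalonate steps, 5 of 6 listed genes were in the table and 4 were tested (Acat2, Mvk, Pmvk and Ggps1), and none was called in any of the 6 comparisons, with a median log2 fold change of -0.40 for HFD against ND. Acat2 (-0.45, adjusted p = 0.044), Pmvk (-0.47, adjusted p = 0.028) and Ggps1 (-0.36, adjusted p = 0.020) passed the p limit there and not the fold limit. For the sterol steps after lanosterol, 8 tested genes were followed. With HFD, 3 of the 8 rose and 0 fell, with a median of 0.51, against 14.8% of all genes called higher and 10.8% called lower. With CLE, 3 fell, with a median of -0.49, and with LU 3 fell, with a median of -0.41. Over all genes, 10.1% and 7.64% were called lower there. Dhcr7, the enzyme of the last step to cholesterol, was at 3.63, 4.95 and 5.25 FPKM in ND, at 15.6, 21.6 and 21.1 FPKM in HFD, at 4.75, 4.14 and 10.9 FPKM in CLE and at 7.84, 6.72 and 8.89 FPKM in LU. It rose by 1.86 ± 0.27 with HFD and fell by 1.52 ± 0.27 with CLE and by 1.21 ± 0.27 with LU.

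Msmo1, a C4 sterol oxidase, rose by 0.96 with HFD and fell by 0.83 with CLE and 0.74 with LU. Hsd17b7, a keto-steroid reductase of the C4 demethylation, rose by 1.02 with HFD. Against HFD, Hsd17b7 was at -0.42 in CLE (adjusted p = 0.0028) and -0.38 in LU (adjusted p = 0.0064), past the p limit and not the fold limit. It was the 1 gene of the 8 called above ND in CLE (0.60 ± 0.08, adjusted p = 0.0094) and in LU (0.63 ± 0.08, adjusted p = 0.0016). Over all genes, 2.07% and 4.97% were called higher there. Dhcr7 was at 0.66 ± 0.27 in LU against ND (adjusted p = 0.13) and was not called. Cyp51, the lanosterol demethylase, fell by 0.70 with CLE and 0.67 with LU, whereas its HFD against ND difference of 0.53 was not called. The other 4 of the list, Tm7sf2, Nsdhl, Ebp and Sc5d, were called in no comparison. Of these, Sc5d passed the p limit and not the fold limit for HFD against ND (0.42), CLE against HFD (-0.31) and LU against HFD (-0.33). Between CLE and LU, 0 of the 8 were called.

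**Figure D3:**
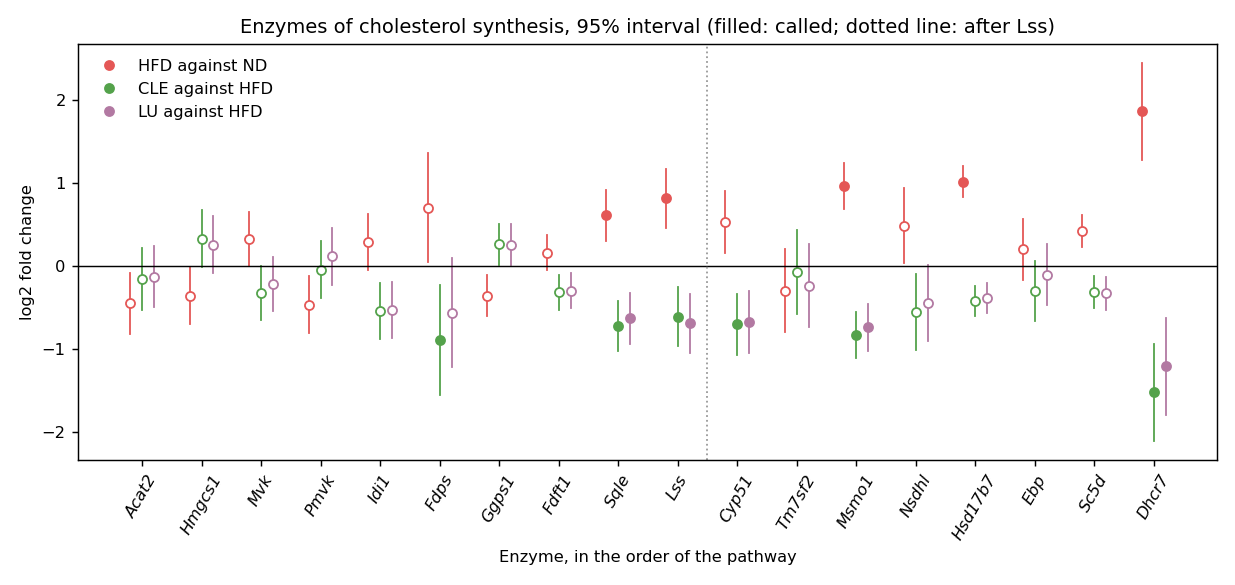
Log2 fold change with 95% interval (vertical axis, log2(FPKM + 1) scale) of 18 enzymes set in the order of the pathway (horizontal axis; Ggps1 is a branch), for HFD against ND in red, CLE against HFD in green and LU against HFD in purple, filled where called. Called points begin at Fdps and Sqle and are largest at Dhcr7 (1.86, -1.52 and -1.21), and the early steps from Acat2 to Idi1 hold open points alone.

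The 12 tested genes that process or turn over SREBP showed 1 called gene in each comparison with HFD, and it was Insig2 each time. Over all genes, 10.8% were called lower with HFD, 6.34% higher with CLE and 4.81% higher with LU. A count of 1 in 12 is near those shares. Insig2, the paralog of Insig1 with the same retaining function, moved opposite to it. It was at 98.2, 97.1 and 107.8 FPKM in ND, at 52.8, 56.2 and 50.1 FPKM in HFD, at 122.8, 131.2 and 72.2 FPKM in CLE and at 97.9, 92.5 and 75.2 FPKM in LU. Insig2 fell by 0.92 ± 0.19 with HFD (adjusted p = 0.0018) and rose by 0.98 ± 0.19 with CLE (adjusted p = 0.0022) and by 0.72 ± 0.19 with LU (adjusted p = 0.016). In ND Insig2 was above Insig1 in each mouse, and in HFD it was below. Scap, the escort of SREBP, and its proteases Mbtps1 and Mbtps2 were not called, with HFD against ND values of -0.04, 0.15 and 0.36. Mbtps2 passed the p limit there and not the fold limit (adjusted p = 0.0076). So did Erlin2 (0.40, adjusted p = 0.0015), Rnf145 (0.31, adjusted p = 0.013) and Erlin1 (0.37, adjusted p = 0.022) of the same list.

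Of 13 tested genes of lipoprotein uptake and of the release of cholesterol from endosomes, 6 rose with HFD and 0 fell, 4 fell with CLE and 0 rose, and 3 fell with LU and 1 rose. Over all genes, 14.8% were called higher with HFD, 10.1% lower with CLE, and 7.64% lower and 4.81% higher with LU. Lipa, the lysosomal acid lipase that frees cholesterol from lipoprotein esters and is abundant in macrophages, rose by 3.04 ± 0.22 with HFD, fell by 2.15 ± 0.22 with CLE and fell by 1.802 ± 0.22 with LU, and stayed above ND in CLE (0.90) and LU (1.24). Stard3, a sterol carrier of late endosomes, rose by 1.23 and fell by 0.77 and 0.70. Dab2, a clathrin adaptor, rose by 0.96 with HFD and was above ND in LU (0.60). Npc2, a cholesterol carrier of the lysosome, rose by 0.92 with HFD and fell by 0.68 with CLE. Lrp1, a large endocytic receptor, rose by 0.74 with HFD and fell by 0.67 with CLE and 0.68 with LU. Mylip, a ubiquitin ligase of lipoprotein receptors, was the 1 gene that rose with LU (0.59 ± 0.20, adjusted p = 0.047).

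Neighbouring lipid pathways were counted in the same way. Of 8 tested genes of SREBP1 and fatty acid synthesis, 0 rose and 1 fell with HFD, with a median of -0.36. Over all genes, 14.8% were called higher and 10.8% lower there. The gene that fell was Acaca, acetyl-CoA carboxylase. It fell by 1.74 ± 0.20 with HFD, rose by 0.62 with CLE and remained below ND in CLE (-1.12) and LU (-1.22). Fasn, fatty acid synthase, was also lower in LU than in ND (-1.04), and 0 of the 8 were called for LU against HFD. Mid1ip1, a partner of acetyl-CoA carboxylase, passed the p limit and not the fold limit in all 3 comparisons with HFD (0.45 for HFD against ND, -0.42 with CLE and -0.39 with LU). Of 7 tested liver X receptor targets and efflux genes, 1 rose with HFD, near the 14.8% of all genes called higher. It was Abcg1 (0.94 ± 0.15), a cholesterol exporter, which was also above ND in CLE (0.87). Abca7 (0.53), Smpdl3a (0.44) and Lpcat3 (0.26) were past the p limit alone. None of the 7 was called in CLE or LU against HFD. Over all genes, 6.34% were called higher and 10.1% lower with CLE, and 4.81% and 7.64% with LU. In lists of 7 or 8 genes, a count of 0 is near those shares.

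Markers of the cell types in the tissue also differed between diets, for macrophages in the direction of most members and for adipocytes opposite to it. Over all genes, 14.8% were called higher and 10.8% lower with HFD. With CLE 6.34% were called higher and 10.1% lower, and with LU 4.81% and 7.64%. All 8 macrophage markers rose with HFD and all 8 fell with CLE and with LU, and their summed FPKM was 321 to 491 in ND, 2281 to 2633 in HFD, 565 to 848 in CLE and 897 to 1029 in LU, with no marker at 0. Of 7 adipocyte markers, 6 fell with HFD, 6 rose with CLE and 3 rose with LU, and their sum was 31242 to 33127 in ND, 14877 to 16938 in HFD, 24122 to 26725 in CLE and 23001 to 28176 in LU. Whole tissue was extracted, so more or fewer cells of a type and more or less RNA per cell cannot be told apart. The part of the cell mixture in the members' values was not tested. Within groups, CLE mouse 11 and LU mouse 8 had the highest macrophage sums (848 and 1029) and were also highest for most members, whereas in HFD mouse 12 had the highest sum (2633) and the lowest value of all 8 members. In ND, mouse 3 had the highest sum (491) and was highest for 4 members and lowest for 2. Of the macrophage markers, 6 of 8 were called above ND in CLE and 7 of 8 in LU, against 2.07% and 4.97% of all genes. Cd14 was at -0.44 and -0.32 against ND and was not called. Of the members, 0 of 8 were called there. The difference between markers and members was not tested.

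**Figure D4:**
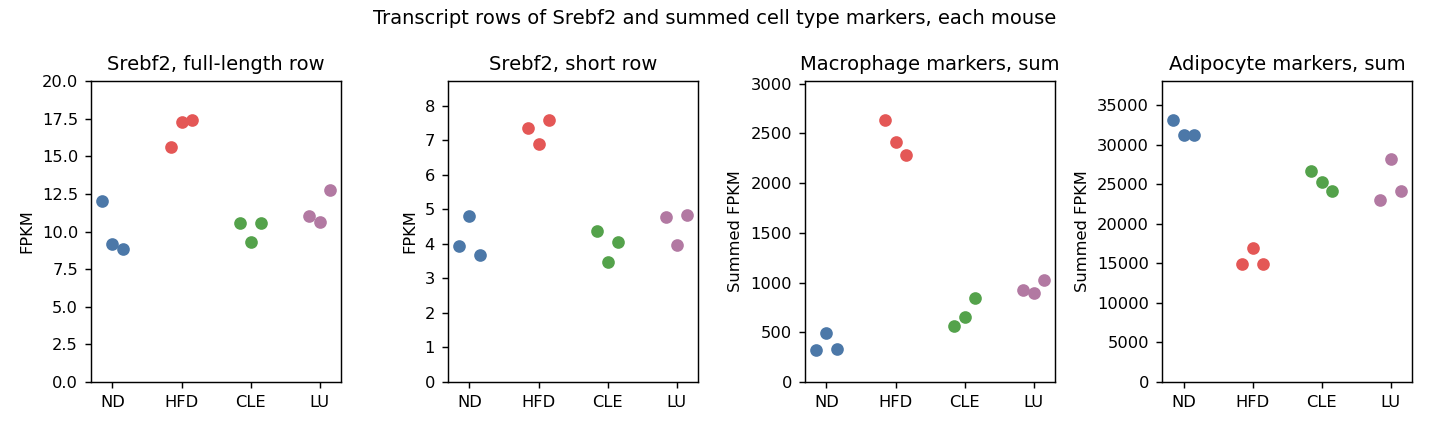
FPKM of the full-length and the short transcript of Srebf2 and summed FPKM of 8 macrophage and 7 adipocyte markers (vertical axes, linear from 0), 1 point per mouse in each diet group. Both Srebf2 transcripts and the macrophage sum are highest in the 3 HFD mice, and the adipocyte sum is lowest there (14877 to 16938). Lyz2 and Fabp4 are the largest parts of the macrophage and adipocyte sums.

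Markers of other cell types were also followed, to be set against the same shares over all genes. Of 5 endothelial markers, 1 fell with HFD, 3 rose with CLE and 4 rose with LU, and of 5 progenitor and fibroblast markers, 2 rose with HFD (Col1a1 by 2.12 and Lum by 1.97) and 2 fell with each supplement. Of 5 mesothelial markers, 4 fell with HFD and 1 rose with each supplement. They summed to 9.43 to 53.3 FPKM in ND and 2.29 to 7.01 FPKM in HFD. Of 5 liver markers, 2 fell with HFD, 2 rose with CLE and 0 were called with LU, and their sum reached at most 32.9 FPKM in any library. T cell and NK cell markers summed to at most 8.54 FPKM. Skeletal muscle markers summed to 15.8 FPKM in CLE mouse 11, 5.83 FPKM in HFD mouse 12 and at most 1.04 FPKM in any other mouse. The part of such tissue in the members' values was not tested.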

How the data were processed

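The submitters' processing notes name CASAVA 1.8.2, Bowtie2 2.2.3, TopHat2 2.0.12 and Cufflinks 2.2.1, and the genome build is not given in the sources used here. The authors deposited FPKM per transcript and library, for 152210 rows, and 32.0% of the values above 0 are under 1e-6, so whole reads could not be recovered. Columns of the authors' own calls (fold change and p-value) were not used, nor were 3 FPKM columns that match no sample. Ensembl transcripts, and assembled ones of class code = or j, were summed per gene through GENCODE M21. GENCODE held 76916 of the 78786 plain identifiers, 87.6% of those with an identical start and end, so positions are those of GRCm38.

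A gene entered the test with 1 FPKM or more in 3 or more libraries. The test was limma 3.58.1 (R 4.3.3) on log2(FPKM + 1), 12 libraries in 1 fit, a coefficient per group. Calls needed a fold change above 1.5 and, after Benjamini-Hochberg adjustment over all tested genes, p under 0.05. An exact permutation test of 3 against 3 mice cannot go below p = 0.1 and was not used for calls. The method was tested on simulated data.

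The members, the lists and the rules for named genes were chosen with earlier results of these data known. Named were the 8 members, up to 3 called genes of each direction per list and comparison (up to 2 for the SREBP1 and liver X receptor lists), the 5 genes most like and the 5 most unlike the members, and each member's main transcript. Scap, Mbtps1, Mbtps2, Ctsb, Cd14, Mid1ip1, Abca7, Smpdl3a, Lpcat3, the genes of each list called in no comparison and the minor transcripts of Srebf2 and Idi1 were added after their values were seen. Some listed genes are not reported here and enter no count over a list. The shorter form of the sterol element was searched after the promoters were seen. Alternatives were a pseudocount of 0.1, no filter or a mean of at least 5 FPKM, 3 scalings, separate fits of the compared groups, a moderation with trend, the letter R as a covariate or its libraries left out, the adjusted p alone, the highest or only the plain transcripts, a replicate block, and leaving out each library. Tables and plots were made with Python 3.11.15, pandas 2.3.3, numpy 2.4.6 and matplotlib 3.10.9.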

Additional observations from a re-analysis of the deposited data

How the results depend on the processing

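Of 48 member values, 14 changed their call in at least 1 of 26 alternatives and 15 changed sign, all of the latter uncalled. Without the letter R libraries, the members called fell from 5 to 2 for CLE against HFD and from 3 to 0 for LU against HFD, in a fit with fewer mice, and the adjusted p alone gave 6 for LU against HFD. Leaving out 1 library at a time gave 3 to 5 members called for HFD against ND, 3 to 6 for CLE against HFD (3 without HFD mouse 15 or 18), 1 to 4 for LU against HFD (1 without LU mouse 3), and 0 in the other comparisons. The sources give no pairing of mice by number, and the mice were treated as unpaired. The deviations of same-numbered mice correlated between -0.10 and 0.19, and a replicate block left the member counts at 4, 5, 3, 0, 0 and 0. Over all genes, the adjusted p alone gave 6443, 4296, 3426, 662 and 1633 calls in place of 3271, 2104, 1590, 373 and 841 for the first 5 comparisons. For CLE against ND the 373 became 227 without a filter, 0 in a fit of the 2 groups, 207 with the highest transcripts and 222 with plain transcripts. It became 124 without ND mouse 2, 228 without CLE mouse 4 and 142 without CLE mouse 11. Without the letter R libraries ND mouse 2 is alone in its group, so that count is left out. The 1 gene called between CLE and LU was not called in 20 of 26 alternatives.

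Signs changed as follows, and the cause was not tested. For CLE against ND, the values without the letter R libraries, with ND mouse 2 alone, were 0.24 for Hmgcs1, 0.0011 for Idi1, 0.43 for Fdps and -0.11 for Srebf2. Srebf2 was at -0.025 with quantiles, -0.046 with the letter R as a covariate and -0.0019 with the replicate block. For LU against ND, Sqle was at 0.0027 with the highest transcript and Srebf2 at -0.035 without the letter R libraries. For CLE against LU, Idi1 was at 0.013 with equal totals, 0.0213 with median ratios, 0.033 with quantiles, 0.0211 without the letter R libraries and 0.0062 with the replicate block, Fdft1 at 0.0028, 0.012, 0.0047 and 0.0031 under the first 4 of these, Lss at -0.019 with the highest transcript and Insig1 at 0.018 without the letter R libraries. Leaving out 1 library, the ranges for CLE against ND were -0.16 to 0.12 for Hmgcs1, -0.45 to 0.16 for Fdps and -0.072 to 0.094 for Srebf2. For LU against ND they were -0.16 to 0.00099 for Hmgcs1, -0.16 to 0.074 for Sqle, -0.12 to 0.49 for Fdps and -0.050 to 0.27 for Lss. For CLE against LU they were -0.058 to 0.22 for Hmgcs1, -0.23 to 0.048 for Sqle, -0.11 to 0.090 for Idi1, -0.085 to 0.064 for Fdft1, -0.065 to 0.25 for Lss and -0.53 to 0.040 for Insig1. The deposited FPKM give no depth, so what the read number limits cannot be stated.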
